A study of Mus musculus with 2 samples.

Results

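The 10 genes described here mark the somatic cells that surround germ cells in the testis. They are Amh, Dhh and Inha of Sertoli cells, Lhcgr, Star, Cyp11a1, Cyp17a1, Hsd3b1 and Insl3 of Leydig cells, and Nr5a1, which both cell types use. They were chosen by name, though with earlier results of these data known, out of 21775 protein-coding genes of the reference table. A peak was counted for a gene when it overlapped the gene span or lay within 10 kb of it. By this rule 27 of the 108395 called peaks belonged to the 10 genes.

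The study profiled 5-hydroxymethylcytosine (5hmC), which TET enzymes make by oxidising 5-methylcytosine. The cells were wild-type (WT) prospermatogonia of mice at embryonic day 17.5, the germ cells of the male foetus. DNA of 30000 cells pooled from several embryos entered 5hmC-Seal, which tags 5hmC with a modified glucose and biotin and captures the tagged fragments on streptavidin. Batch 1 comprises 1 library after capture and 1 from the same DNA ahead of it, and only the peak list of the captured library was used here. There is no replicate, and without read counts in the file the depth is unknown. No test between samples was possible, and the values describe 1 library. Fold enrichment and q are given as the authors' caller wrote them, and intervals given for shares of genes or peaks are exact Clopper-Pearson 95% intervals that cover counting error only.

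In the foetal testis, Sertoli cells enclose the germ cells in cords and secrete hormones that direct male development. Leydig cells lie between the cords and turn cholesterol into androgens, a process that begins with import into mitochondria by STAR and runs through CYP11A1, 3-beta-hydroxysteroid dehydrogenase and CYP17A1. NR5A1, also called SF-1, is the nuclear receptor that switches on many of these genes. The genes were chosen as ones that germ cells do not express. The measurement is a DNA modification and not expression, so these genes cannot serve here to check the purity of the germ cells. A peak may come from few cells with much 5hmC or from many cells with little, and the pooled DNA does not tell these apart.

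Peaks overlapped the span of 6 of the 10 genes (60%, 26.2 to 87.8), against 61.6% of all protein-coding genes. Dhh, Inha, Nr5a1, Lhcgr, Cyp11a1 and Cyp17a1 had such a peak. Amh, Star, Hsd3b1 and Insl3 had none. With the flanks of 10 kb, 9 of the 10 genes had a peak (90%, 55.5 to 99.7), against 78.7% of protein-coding genes, and Hsd3b1 was the exception. The former share is close to that of genes at large, and the interval of the latter includes it. Of the protein-coding genes of 20 kb or less, 42.9% had a peak in the span, and 7 of the 10 genes are that short, of which Dhh, Inha and Cyp17a1 had one. A peak lay within 1 kb of either gene end in 5 genes (50%, 18.7 to 81.3), Inha, Nr5a1, Lhcgr, Cyp11a1 and Cyp17a1, against 26.6%. The interval of that share includes the share of all genes. With ends of 250 bp, or with the peak midpoint required within 1 kb, the count stayed at 5. The share of all genes was then 13.1% and 18.2%, below that interval, the latter narrowly. The gene-end peaks of Inha, Nr5a1 and Cyp17a1 were weak, with a −log10 q of at most 1.21 and thus a q above 0.05.

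**Figure D1:**
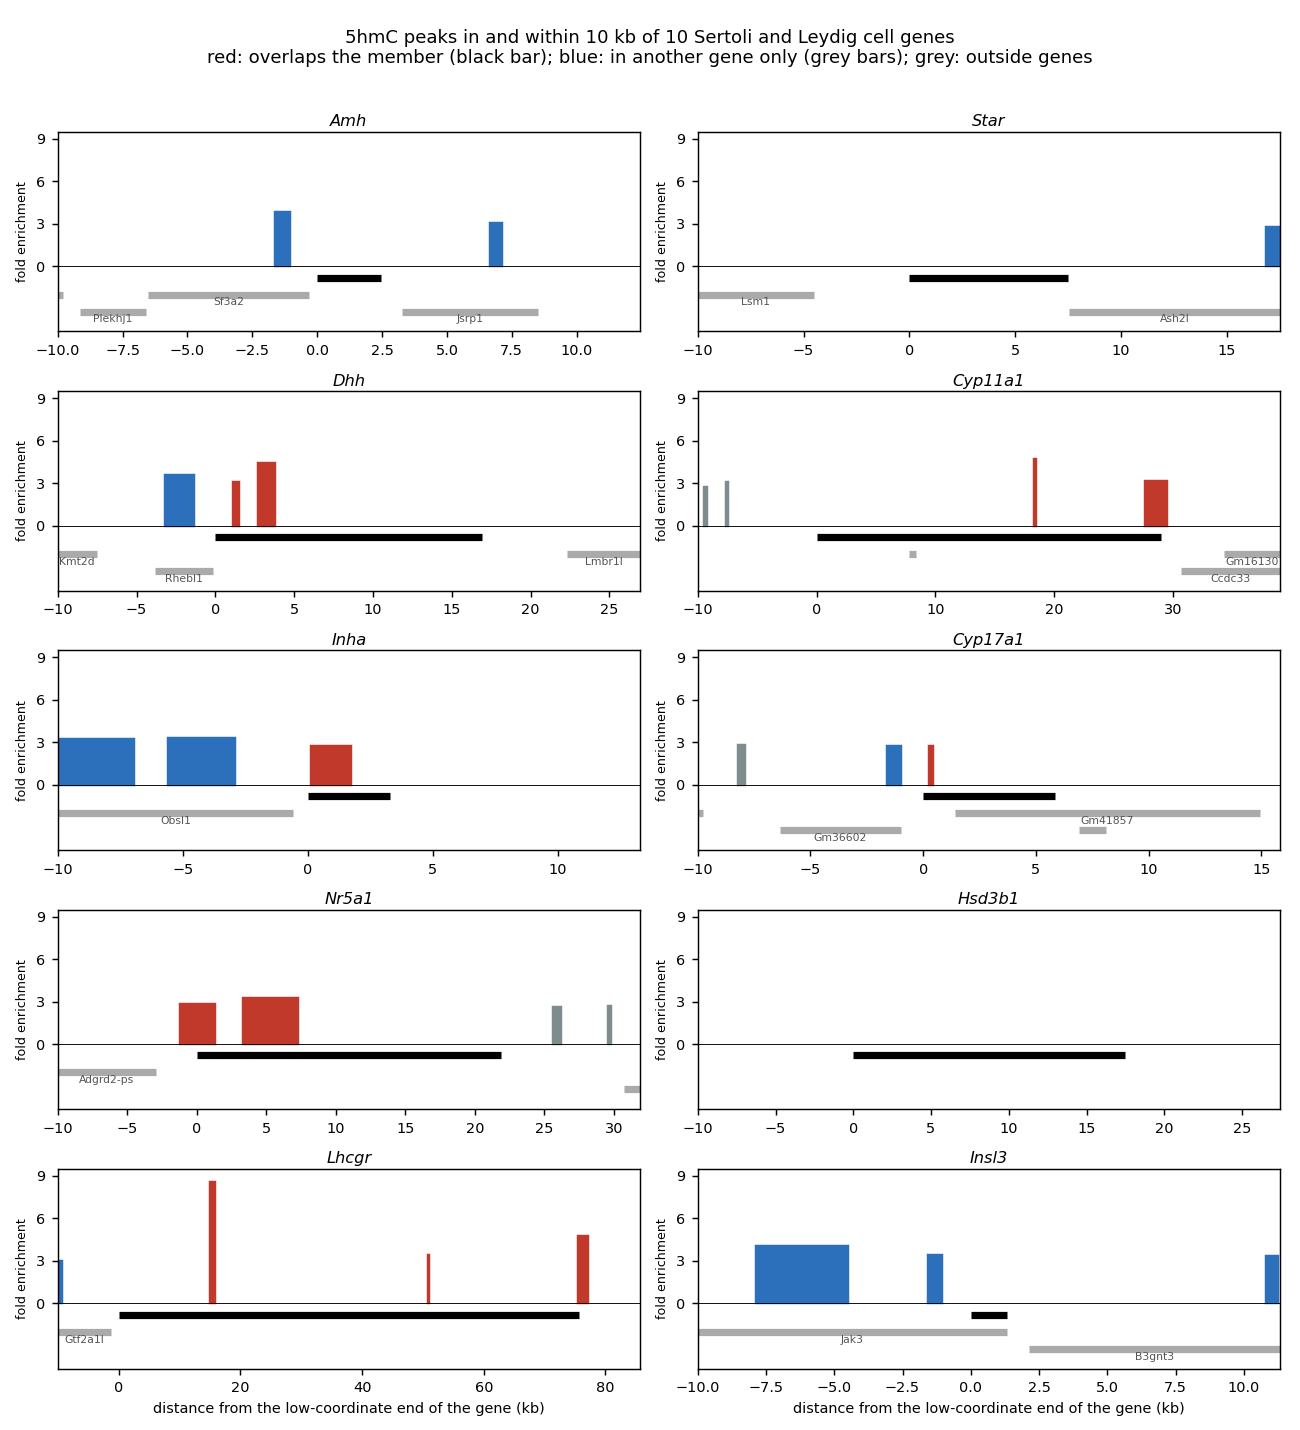
Peaks in each gene and its 10 kb flanks. The x axis is the distance in kb from the low-coordinate end of the gene and the y axis the authors' fold enrichment. Each coloured block is 1 peak, the black bar is the gene and grey bars are other genes. Hsd3b1 has no block, Amh, Star and Insl3 have blocks outside the gene only, and the highest block, at 8.65, lies in Lhcgr.

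Of the 27 peaks, 11 overlapped 1 of the 10 genes, 11 lay in another gene only and 5 lay outside annotated genes. The windows thus hold as many peaks of neighbouring genes as of the genes themselves. Most of the peaks were weak. The median fold was 3.22 with a range from 2.71 to 8.65, against a median of 3.35 over all peaks. The −log10 q was below 2 in 19 of the 27 peaks (70.4%, 49.8 to 86.2), against 56.2% of all peaks. It reached 3 in 5 peaks (18.5%, against 24.2% of all peaks) and 5 in 1 peak, in Lhcgr (3.70% against 11.9%). Peaks that overlapped the genes had a median width of 1110 bp and a median fold of 3.31. The other peaks of the windows had medians of 622.5 bp and 3.15.

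At a −log10 q of at least 3, a peak overlapped 3 of the 10 genes, Dhh, Lhcgr and Cyp11a1, against 22.6% of protein-coding genes. With the flanks it was 4 genes, Insl3 included, against 37.2%, and at gene ends 1 gene, Lhcgr, against 4%. At a −log10 q of at least 5 the strongest Lhcgr peak alone was left, so 1 gene had a peak in the span and in the window, against 8.83% and 16.3%. No gene then had one at its ends, against 1.27%.

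**Figure D2:**
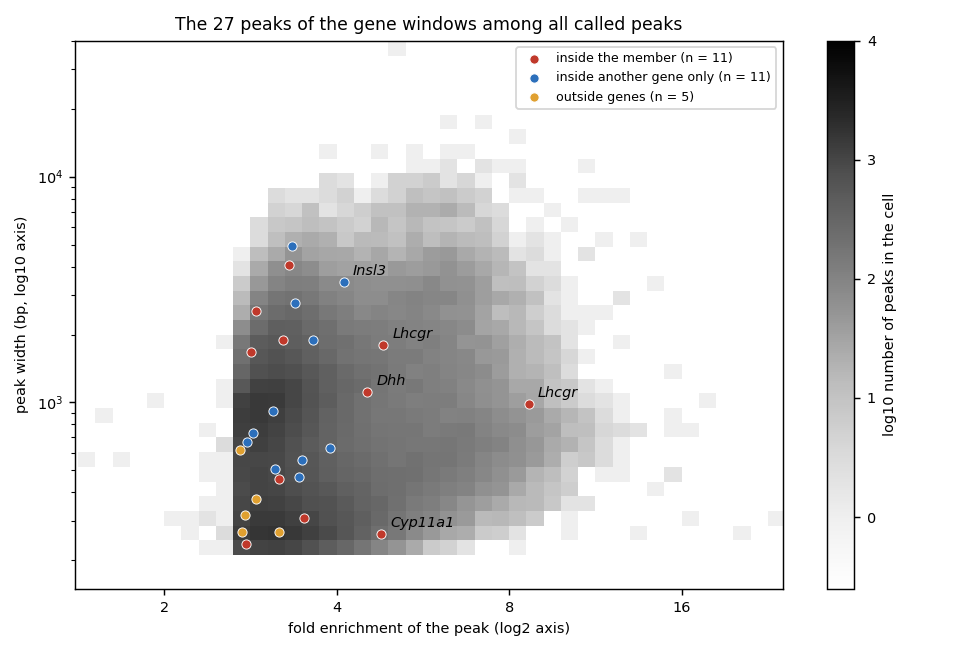
Fold enrichment (x axis, log2) and width in bp (y axis, log10) of all called peaks, shaded by number, with the 27 peaks of the gene windows as points coloured by place. Names mark the 5 peaks with a −log10 q of at least 3. Most points lie at folds under 4, and the Lhcgr point at 8.65 stands toward the sparse right side of the shaded field.

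Among the Sertoli cell hormones, Inha was the most covered. Inha encodes the alpha subunit of inhibin, which restrains follicle-stimulating hormone. It lies on chromosome 1 from 75507077 to 75510366 (build mm10). A peak of 1677 bp, from 75507150 to 75508826, covered 51.0% of the gene. This share was higher than in 96.7% of the 3784 protein-coding genes of 0.5 to 2 times its length, whose median was 0%. The peak runs from 459 bp before to 1217 bp after the listed transcription start, 75507609. That start lies inside the gene span. The peak began 73 bp inside the low-coordinate end, so no part of it lay outside the gene. This peak is broad but weak, with a fold of 2.83 and a −log10 q of 1.15. A wide pair of peaks lay beside Inha in Obsl1, a gene of a cytoskeletal adaptor. They measured 4955 bp at fold 3.34 and 2747 bp at fold 3.39. The former was wider than 99.4% of all peaks and reaches past the 10 kb limit.

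Amh encodes anti-Müllerian hormone, which removes the precursors of the uterus and oviducts in male embryos. The gene, of 2.44 kb on chromosome 10 from 80805240 to 80807679, carried no peak. A gene of this size often has none, since 27.4% of the 3007 genes of like length had a peak. The nearest peak, of 630 bp and fold 3.89, lay 1048 bp away inside Sf3a2, which encodes a splicing factor subunit. Another of fold 3.12 lay 4174 bp away in Jsrp1. Both peaks of the Amh window thus sit in neighbouring genes on its opposite sides.

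Dhh encodes desert hedgehog, the Sertoli cell signal that promotes Leydig cell differentiation. The gene lies on chromosome 15 from 98881615 to 98898562 on the minus strand, and 9.26% of it was covered. Its peaks were far from the listed start, near the other end of the gene. A peak of 1110 bp, fold 4.52 and −log10 q 3.83 began 13146 bp after the start. A smaller one of 459 bp and fold 3.17 began 15415 bp after it. A further peak of 1899 bp and fold 3.63 lay beyond the end, in Rhebl1, a GTPase gene. No peak lay within 13037 bp of the 300-base promoter.

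Nr5a1 encodes the nuclear receptor SF-1 that both lineages need. Peaks covered 24.4% of its 21.9 kb on chromosome 2, from 38692656 to 38714542. This was more than in 92.1% of the 7899 genes of like length, whose median was 4.56%. The wider peak, 4054 bp from 38695886 to 38699939, had a fold of 3.31 and a −log10 q of 1.83. The other, of 2554 bp and fold 2.90, straddled the low-coordinate end, with 1283 bp inside the gene and 1271 bp outside. Past the high-coordinate end, 615 bp and 268 bp were called outside genes at folds of 2.71 and 2.74. Their −log10 q of 1.02 is near the lowest in the list, 1.01. The covered part of Nr5a1 thus lies toward its low-coordinate end, and the enrichment there is broad and low.

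**Figure D3:**
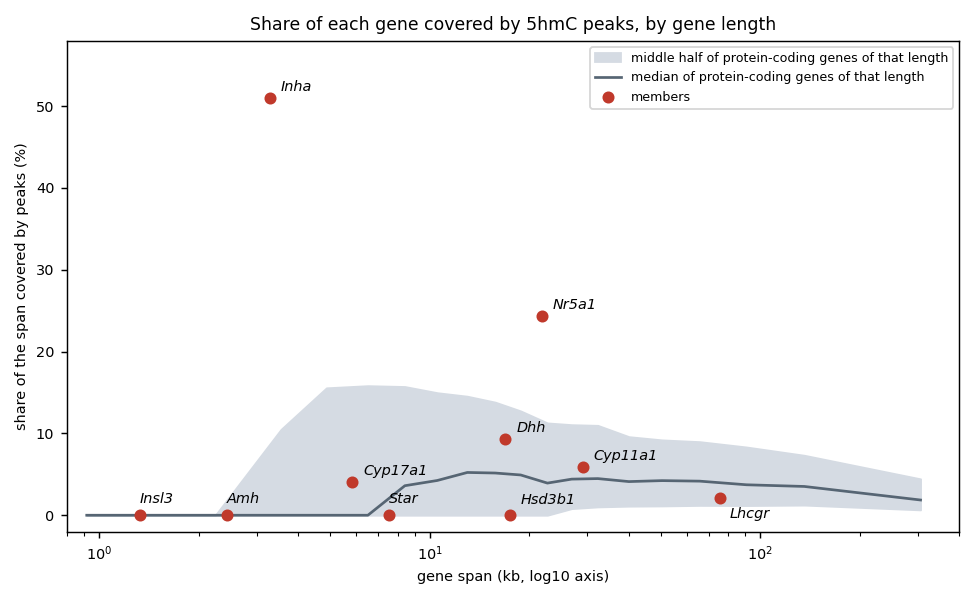
Share of the gene span covered by peaks in percent (y axis) against gene span in kb (x axis, log10). The line is the median and the band the middle 50% of protein-coding genes in classes of like length, and points are the 10 genes. Inha at 51.0% and Nr5a1 at 24.4% lie above the band, and Amh, Star, Hsd3b1 and Insl3 are at 0%.

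Lhcgr had the strongest peak of all 10 genes. It encodes the receptor through which luteinising hormone stimulates Leydig cells, and it is the longest of the genes, with 75.7 kb on chromosome 17 from 88716384 to 88792059 on the minus strand. The strongest peak, 983 bp from 88731310 to 88732292, had a fold of 8.65 and a −log10 q of 12.6. Only 720 of all called peaks (0.664%) had a higher fold. It lies deep in the gene, 59722 to 60704 bp after the listed start. A second peak of 1789 bp covered the start itself, from 1523 bp before it to 265 bp after it, with a fold of 4.82 and a −log10 q of 4.41. Another, of 307 bp and fold 3.51, began 24614 bp after the start. Despite these peaks, 2.12% of the gene was covered, against a median of 3.98% in the 4843 genes of like length. The remaining peak of the window, of fold 3.10, lay 9254 bp from the gene in Gtf2a1l, which encodes a germ cell form of a general transcription factor.

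The 4 genes of androgen synthesis differed from each other. Star, whose protein brings cholesterol into mitochondria, had no peak in its 7.51 kb on chromosome 8, from 25808474 to 25815982. Among the 6070 genes of like length, 54.0% had one. The only peak of its window, of 733 bp and fold 2.86, lay 9311 bp away in Ash2l, a subunit gene of histone H3K4 methyltransferase complexes.

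Cyp11a1 encodes the side-chain cleavage enzyme that makes pregnenolone from cholesterol. It lies on the plus strand of chromosome 9 from 57998024 to 58027031, and 5.87% was covered, near the median of 4.41% for its length. The stronger of its peaks was narrow, 262 bp at fold 4.79 and a −log10 q of 4.08. It began 1245 bp after the second of 2 listed starts, at 58014952. The other, 1899 bp at fold 3.22, ran over the high-coordinate end of the gene, with 458 bp beyond it. Farther out, 318 bp at fold 2.77 and 268 bp at fold 3.17 were called outside genes before the first start. No peak lay within 7216 bp of the promoter at the first start.

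Cyp17a1 encodes the enzyme that commits steroids to the androgen branch. Its 5.84 kb on chromosome 19, from 46667165 to 46673000, held 1 peak of 237 bp close to the low-coordinate end. The fold was 2.78 and the −log10 q 1.12, and 3.08% of all peaks were narrower. A peak of 669 bp and fold 2.79 lay 967 bp outside, overlapping the non-coding gene Gm36602, and another of fold 2.89 lay 7890 bp away. All 3 peaks of this window had a −log10 q of at most 1.34.

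Hsd3b1 encodes a 3-beta-hydroxysteroid dehydrogenase and was the only gene with no peak in its window. It spans 17.4 kb on chromosome 3, from 98842356 to 98859794, and 83.3% of the 7853 genes of like length had a window peak. The nearest peaks lay 41.1 kb away on one side, at fold 4.48, and 136 kb away on the other, at fold 5.38. This peak-free stretch of 194 kb was longer than 98.9% of the 106015 stretches between neighbouring peaks on the autosomes, whose median was 8.35 kb. It was measured because the window of 37439 bp had no peak, so a high rank was in part given beforehand. The stretch also contained Hsd3b6, the form of adult Leydig cells, and Hao2, an oxidase gene. Of the 6 Hsd3b genes of this cluster, which runs over 361 kb, Hsd3b5 alone had a peak in its span, at fold 2.77. Hsd3b1, Hsd3b2, Hsd3b3, Hsd3b4 and Hsd3b6 had none. Between the outer ends of the cluster 5 peaks were called, with folds from 2.77 to 7.78, and 1.57% was covered. These genes are close copies of each other, and how reads that map to several places were handled is not given in the sources used here, so the lack of peaks in them is uncertain.

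Insl3 encodes the Leydig cell hormone that guides testis descent. The gene is short, 1.33 kb on chromosome 8 from 71689252 to 71690577 on the plus strand, and lies wholly within the annotated span of Jak3, a kinase gene of lymphoid cells. No peak overlapped Insl3, as in most genes of its size, of which 9.07% had a peak. Its window nonetheless held 3 peaks, against a median of 0 in the 2878 genes of like length. A peak of 3406 bp, fold 4.11 and −log10 q 3.14 lay in Jak3 between 4503 and 7908 bp before the Insl3 start. A second in Jak3, of 556 bp and fold 3.47, ended 1062 bp before the start. Another, of fold 3.44, lay 9448 bp away in B3gnt3, a glycosyltransferase gene. Within the 10 kb rule the most distant peaks were this one and those of Star and Lhcgr given above. The closest peaks left out lay 11.04 kb from Cyp17a1, at fold 2.77, and 11.2 kb from Nr5a1 and from Star, at folds 2.90 and 4.09.

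The surroundings of the genes differed widely in peaks. In 1 Mb centred on the gene, Dhh had 125 peaks, Amh 111 and Cyp17a1 110. Star had 87, Cyp11a1 83, Inha 73, Insl3 55 and Lhcgr 50. Nr5a1 with 34 and Hsd3b1 with 23 had the fewest. The median over all protein-coding genes, measured alike, was 59. A window was covered more than its own 1 Mb in 3 of the 10 genes, against 39.6% of protein-coding genes. These were Inha (32.1% against 7.26%), Insl3 (20.8% against 5.09%) and Nr5a1 (17.9% against 2.94%). Amh, with 5.08% against 11.1%, and Cyp17a1, with 4.95% against 10.7%, were covered less than their surroundings. Nr5a1 thus combined a covered gene with a sparse neighbourhood, and Amh an uncovered gene with a dense one.

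**Figure D4:**
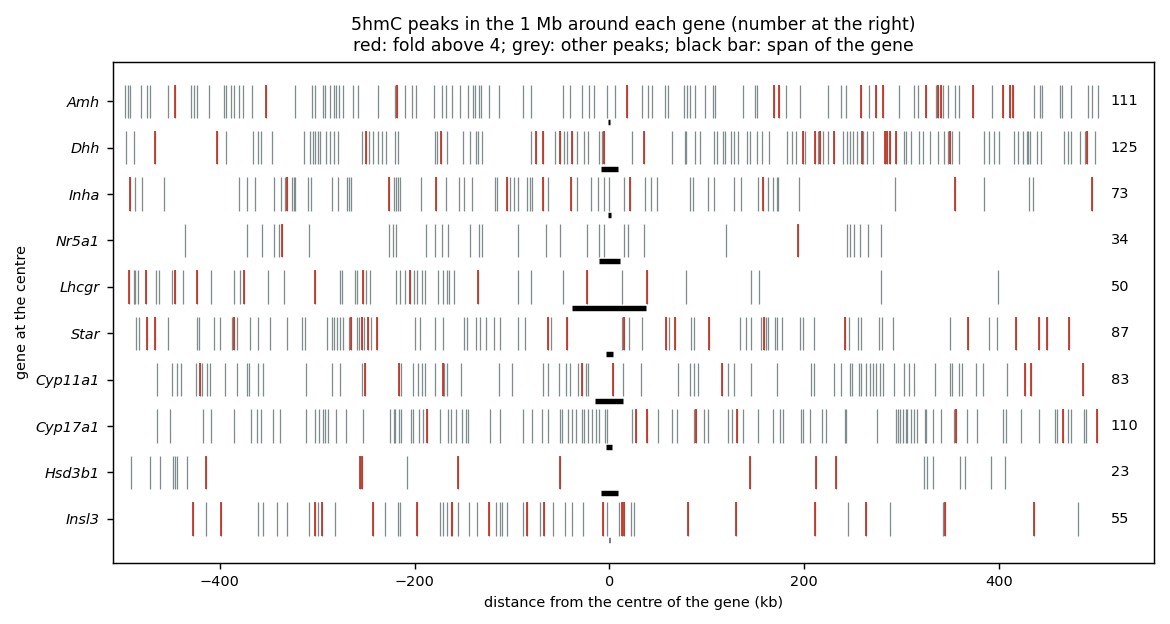
Peaks in the 1 Mb around each gene. The x axis is the distance in kb from the centre of the gene, each row is 1 gene, each line is 1 peak (red for folds above 4) and the number at the right is the count. Dhh has the most peaks, 125, and Hsd3b1 the fewest, 23, with an empty stretch over the gene.

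RefSeq promoters (GRCm38.p6, the build of mm10), each with 250 bases before and 50 after a start, were at hand for 6 of the 10 genes, 7 promoters in all. The promoters of Lhcgr and Inha lay wholly in a peak and the other 5 did not touch one, against 5.9% of 32851 promoters at large that did. The peak at Inha was weak, with a −log10 q of 1.15 and thus a q above 0.05. Promoters of both Cyp11a1 starts are among the 7, and the difference from promoters at large was not tested. The Lhcgr promoter is chr17:88791965-88792264 on the minus strand and the Inha promoter chr1:75507359-75507658 on the plus strand. The listed Inha start lies inside the gene span, so its 300 bases are within the gene and not before it. Those of Insl3, chr8:71689002-71689301 on the plus strand, and Hsd3b1, chr3:98859745-98860044 on the minus strand, are shown for contrast because they are the richest and nearly the poorest in CpG and have no peak. Capitals mark CpG dinucleotides, the main place of cytosine methylation and thus of 5hmC.
Lhcgr: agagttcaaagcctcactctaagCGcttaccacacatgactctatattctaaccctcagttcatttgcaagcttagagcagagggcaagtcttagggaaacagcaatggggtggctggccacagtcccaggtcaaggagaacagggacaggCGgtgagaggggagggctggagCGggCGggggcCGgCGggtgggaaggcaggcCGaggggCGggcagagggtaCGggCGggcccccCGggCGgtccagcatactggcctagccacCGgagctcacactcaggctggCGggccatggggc
Inha: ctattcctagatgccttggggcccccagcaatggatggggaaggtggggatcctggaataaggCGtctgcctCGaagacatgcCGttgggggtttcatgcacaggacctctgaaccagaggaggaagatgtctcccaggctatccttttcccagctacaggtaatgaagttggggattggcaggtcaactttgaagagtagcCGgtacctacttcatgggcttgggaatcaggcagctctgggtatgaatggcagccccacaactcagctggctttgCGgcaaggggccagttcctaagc
Insl3: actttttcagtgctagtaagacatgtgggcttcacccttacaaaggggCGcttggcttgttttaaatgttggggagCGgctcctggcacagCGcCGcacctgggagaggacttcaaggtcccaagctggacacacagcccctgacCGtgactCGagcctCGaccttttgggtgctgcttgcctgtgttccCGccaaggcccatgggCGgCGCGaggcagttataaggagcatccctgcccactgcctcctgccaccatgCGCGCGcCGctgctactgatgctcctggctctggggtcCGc
Hsd3b1: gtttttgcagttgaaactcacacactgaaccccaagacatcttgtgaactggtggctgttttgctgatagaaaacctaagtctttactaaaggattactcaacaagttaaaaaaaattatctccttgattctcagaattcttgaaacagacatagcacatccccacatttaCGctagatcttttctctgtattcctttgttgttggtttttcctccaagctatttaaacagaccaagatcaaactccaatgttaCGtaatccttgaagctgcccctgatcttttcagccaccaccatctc

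The Lhcgr promoter holds 14 CpG and 64.0% G and C, with 13 of the CpG in the 150 bases nearer the gene. The Inha promoter holds 5 CpG spread over its length. Insl3 has 16, Dhh 12, the first Cyp11a1 start 7, Hsd3b1 2 and the second Cyp11a1 start 1, against a median of 7 over all promoters. The share of promoters in a peak was highest at intermediate counts. It was 15.7% (14.8 to 16.6) at 5 to 9 CpG, the class of Inha, and 9.13% (8.11 to 10.2) at 10 to 14 CpG, the class of Lhcgr and Dhh. It was 2.02% (1.52 to 2.62) at 15 to 19 CpG, the class of Insl3, and 5.03% (4.65 to 5.42) at 0 to 4 CpG, the class of Hsd3b1. At 30 or more CpG it was 0.391%. The motif AAGGTCA, bound by NR5A1, was searched on both strands and was in none of the 7 promoters and in 4.72% of all. Only exact matches were counted and variants of the site were not searched, so a lack of NR5A1 sites was not shown. The GATA site AGATAA was in the Hsd3b1 promoter, once, and in 11.2% of all.

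**Figure D5:**
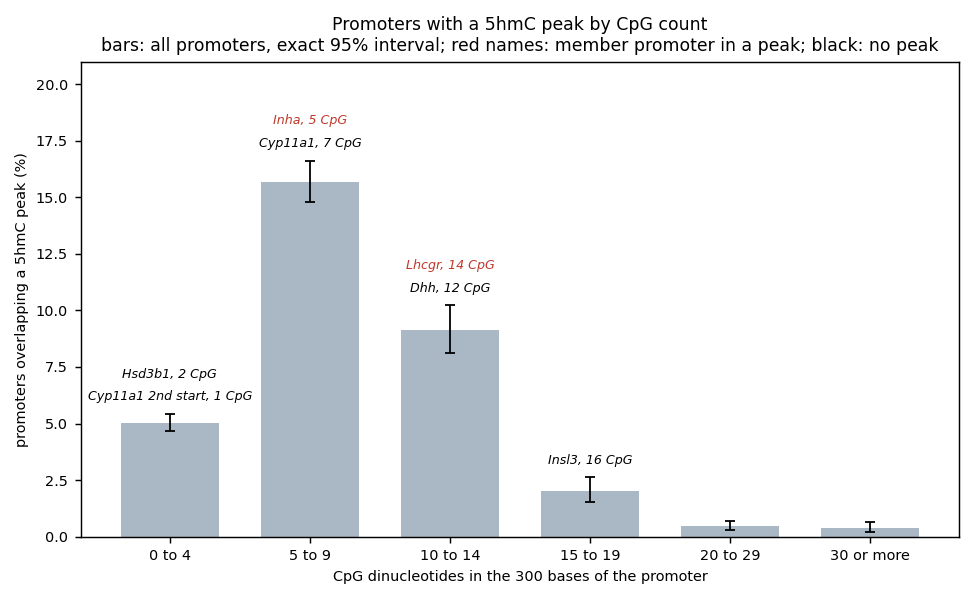
Share of promoters that overlap a peak in percent (y axis) by the number of CpG in their 300 bases (x axis), over all promoters with exact 95% intervals. Names place the promoters of the genes, in red where a peak covers them. Inha and Lhcgr, the covered ones, fall in the classes with 15.7% and 9.13%. The bases counted for Inha lie within its gene span.

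Each of 3 further lists of genes tied to these cells had a share with a span peak whose interval includes the 61.6% of genes at large. Among 22 further Sertoli cell genes, 13 had a peak in the span (59.1%, 36.4 to 79.3) and the median covered share was 1.76%, against 2.25% over all protein-coding genes and 3.09% over the 10 genes. The highest folds were 4.36 in Dmrt1, a transcription factor gene of testis development that germ cells use too, 3.75 in Aard and 3.67 in Fshr, the receptor gene of follicle-stimulating hormone. Sox9, the central Sertoli cell factor gene, had no peak in its span and 1 within 10 kb. Those with none within 10 kb included Kitl, Fgf9, Nr0b1, Tsx and Cst9, and Nr0b1 and Tsx lie on the X.

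Among 24 further Leydig cell and steroid genes, 16 had a peak in the span (66.7%, 44.7 to 84.4), with a median covered share of 5.57%. Their median span was 21.3 kb, longer than the 17.2 kb of all protein-coding genes and the 12.2 kb of the 10 genes. Prlr, the prolactin receptor gene, had the highest fold, 4.79. It was followed by Cyp19a1, the aromatase gene, at 4.32 and Scarb1, which encodes a receptor for lipoprotein cholesterol, at 4.31. The span of Scarb1 was 29.1% covered by 16 peaks. Those with no peak within 10 kb included Hsd3b2 and Hsd3b3.

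Among 12 genes of hormone partners and receptors, 10 had a peak in the span (83.3%, 51.6 to 97.9). These genes too were longer than genes at large, with a median span of 23.0 kb against 17.2 kb. The highest fold was 6.51 in Tgfbr3, the gene of the inhibin co-receptor betaglycan, and high folds included 4.27 in Amhr2, the receptor gene of anti-Müllerian hormone. Cga and Fshb, which encode pituitary hormone subunits, had none within 10 kb. The ligand gene Amh thus had no peak in its span while its receptor gene Amhr2 had 1, and both Dhh and its receptor gene Ptch1 had peaks, up to 4.52 and 4.07.

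For comparison, 18 of 22 germ cell genes had a peak in the span (81.8%, 59.7 to 94.8), with a median covered share of 8.80% and a median span of 19.03 kb. The 10 genes had 60% and 3.09% at a median span of 12.2 kb. The highest germ cell folds were 6.60 in Mael and 6.50 in Tdrd9, both of the piRNA pathway, and 5.24 in Prdm1, a germ cell specification gene. A peak lay within 1 kb of an end in 16 of the 22 (72.7%, 49.8 to 89.3), against 26.6% of all protein-coding genes. The interval of their share with a span peak includes the 61.6% of genes at large. Dazl, Nanos2, Nanos3 and Dppa3 had no peak in the span. The difference from the somatic genes was not tested, since genes are not replicates and gene length differs, and the intervals of both shares overlap.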

How the data were processed

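One peak list of 1 captured library was analysed. Per the submitters' processing notes, the build was mm10 and the tools were MACS2 2.1.0, Bowtie2 2.5.0, deepTools 3.5.1, Trim Galore, bedtools 2.27.1 and SAMtools 1.16.1. Their roles, the peak calling settings and whether the uncaptured library served as control were not given in the sources used here. Per the file's broadPeak layout, the deposited values of each peak are a fold enrichment (a ratio to the caller's background), a −log10 p, a −log10 q and a display score, and the score was not used. Peak positions were made 1-based.

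Gene spans came from a RefSeq table of GRCm38.p6, with genes on chromosomes 1 to 19, X and Y, and without those that start in the first 3 Mb of a chromosome other than Y. It gives no exons, so exons and introns were not analysed here. Overlap needed at least 1 bp. Genes of like length have 0.5 to 2 times the length of the gene compared. Interval code was checked on simulated peaks. Python 3.11.15, pandas 2.3.3 and scipy 1.17.1 were used.

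The genes, lists, rules and alternatives were chosen with earlier results of these data known. All 10 genes are named, with neighbours that hold their peaks and the 3 highest folds of each other list; a few items these rules name are not reported here. Sox9, Ptch1, genes listed as lacking peaks, the Hsd3b family and the 1 Mb and like-length comparisons were added after values were seen.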

Additional observations from a re-analysis of the deposited data

How the results depend on the processing

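Stricter peak thresholds changed most counts. With a −log10 q of at least 3, a peak overlapped 3 of the 10 genes (Dhh, Lhcgr and Cyp11a1) and lay within 10 kb of 4, with Insl3 added, and 5 peaks were left, 1 of them at the start of Lhcgr, the only gene-end peak. Protein-coding genes then had a span peak in 22.6%, a window peak in 37.2% and a gene-end peak in 4%. With at least 5, the Lhcgr peak of fold 8.65 alone was left, so both counts of genes were 1 and the count at gene ends was 0, against 8.83%, 16.3% and 1.27%. At both thresholds the median covered shares of spans and windows were 0%, as over all protein-coding genes. The counts with a span peak became 1 and 0 for further Sertoli cell genes, 3 and 0 for Leydig cell and steroid genes, 4 and 1 for hormone partners and receptors, and 9 and 3 for germ cell genes. Flanks of 5 kb gave a median window share of 7.44% (3.25% over all protein-coding genes), with 8 genes (71.7% of protein-coding genes) and 19 peaks. Flanks of 20 kb gave 11.2% (4.37%), with 9 genes (86.4%) and 48 peaks, against 5.34% (3.82%) at 10 kb. Peak midpoints left the counts at 6, 9 and 5 genes and 27 peaks, gene ends of 250 bp left 5 genes, and merging peaks within 1 kb left 27 peaks. By midpoint, protein-coding genes had a span, window and gene-end peak in 60.6%, 78.1% and 18.2%, and within 250 bp of an end in 13.1%. Genes of 20 kb or less had a median covered share of 0%, and 42.9% of them had a span peak. No paired analysis was possible because there is 1 captured library. The depth is unknown, and 8 of the 27 peaks (29.6%) had a q above 0.05, against 22.9% of all peaks.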
